A study of Mus musculus with 54 samples.

Results

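The 10 heat shock chaperone genes described here are Hspa8, Hspa1a, Hspa1b, Hsp90aa1, Hsp90ab1, Hspd1, Hspe1, Hsph1, Dnaja1 and Dnajb1. They were taken by name from the 23154 genes of a count table of single mouse haematopoietic cells, and all 10 had counts in the annotated cells. The cells came from C57BL/6 mice aged 8 to 10 weeks. Transplanted cells had been collected on day 1 (61 cells, 3 libraries), day 3 (125 cells, 3 libraries), day 5 (336 cells, 7 libraries) and day 7 (389 cells, 10 libraries), from libraries labelled bone marrow, spleen or both. Of the day 5 libraries, 4 were labelled spleen, 2 bone marrow and spleen, and 1 bone marrow. Another 120 transplanted cells came from 3 libraries that pooled collection days. They entered no test but are included in the levels by the types that the authors predicted. Steady state cells had been sorted into 28 populations, here grouped as multipotent progenitor gates (iMPP, 508 cells, 17 libraries), committed progenitors (95 cells, 4 libraries), erythroblasts (70 cells, 3 libraries), myeloid cells (106 cells, 3 libraries), lymphoid cells (167 cells, 4 libraries), megakaryocytes (MK, 19 cells, 2 libraries) and stem cell gates (iHSC, 305 cells, 12 libraries). Neither the treatment of the recipients, the cells injected nor the number of animals was given in the sources used here, so the library served as the replicate and p-values measure only the spread between libraries.

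Heat shock proteins are molecular chaperones that hold, fold and release other proteins. Hsp70 proteins bind unfolded stretches with the help of J-domain partners, which deliver clients and start ATP hydrolysis, and of nucleotide exchange factors. Hsp90 proteins take over clients such as kinases and steroid receptors at a later step, and Hsp60 with Hsp10 forms a folding chamber in the mitochondrial matrix. Some of these genes are expressed constantly in growing cells, whereas the Hspa1 genes are the classical stress-inducible members, switched on by heat shock factor 1 (HSF1) within minutes to hours of protein damage. HSF1 binds heat shock elements, which are inverted repeats of a short GAA unit.

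Promoter sequences are shown for the 4 genes whose arrangement bears on how their values can be read. Hspa1a (chromosome 17, 34969190 to 34972156, minus strand) and Hspa1b (chromosome 17, 34956436 to 34959238, minus strand) are neighbouring copies (GENCODE M21, GRCm38). The 250 bases before their starts differ at 3 positions. Hspd1 (chromosome 1, 55077835 to 55088243, minus strand) and Hspe1 (chromosome 1, 55088132 to 55091307, plus strand) lie on opposite strands. One of the 2 RefSeq starts of Hspd1 is 215 bases from that of Hspe1, with the third sequence between them. The other Hspd1 start lies on the far side of the third sequence, which the GENCODE model places in an Hspd1 exon. The GENCODE models of both genes overlap at the 5′ ends, and whether counting used strand was not given, so reads from the overlap cannot be told apart. The sequences are from RefSeq (GRCm38.p6), 5′ to 3′, and capitals mark each match to a pair of heat shock units (GAANNTTC or TTCNNGAA, both strands).
Hspa1a, chr17:34972157-34972406, minus strand: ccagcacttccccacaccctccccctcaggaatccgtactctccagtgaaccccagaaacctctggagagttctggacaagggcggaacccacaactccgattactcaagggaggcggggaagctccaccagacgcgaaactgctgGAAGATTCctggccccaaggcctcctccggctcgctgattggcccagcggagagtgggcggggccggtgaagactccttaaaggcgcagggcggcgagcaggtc
Hspa1b, chr17:34959239-34959488, minus strand: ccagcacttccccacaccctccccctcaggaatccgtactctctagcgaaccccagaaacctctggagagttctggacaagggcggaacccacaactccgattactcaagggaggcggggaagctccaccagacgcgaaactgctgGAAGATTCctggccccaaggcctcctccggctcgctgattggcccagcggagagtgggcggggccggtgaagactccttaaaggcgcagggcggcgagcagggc
Hspd1 and Hspe1, chr1:55088053-55088082, plus strand: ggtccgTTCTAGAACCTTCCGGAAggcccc

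The third window holds 3 overlapping matches. Over all 32851 promoter windows of the table (250 bases before to 50 after each start), 15.1% held a match to the paired unit and 0.603% a match to 3 units in a row (GAANNTTCNNGAA or TTCNNGAANNTTC). The table had windows for 7 of the 10 genes. Both Hsph1 windows, the Hspe1 window and 1 of 2 Hspd1 windows held the longer motif, and 0 of 2 Dnajb1 windows held either motif. These are letter matches, not measured binding.

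The copies Hspa1a and Hspa1b share most of their coding sequence: 82.3% of the 50-base windows of the Hspa1a coding sequence occur unchanged in Hspa1b. After the stop codon 0% of the 50-base windows are shared, and the libraries captured 3′ ends of mRNA. How reads that match both copies were counted was not given in the sources used here, so the split between both genes is uncertain and their sum is given where it matters. The same holds for reads shared with processed pseudogenes of the other members.

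Hspa8 was found in nearly every cell, whereas the Hspa1 copies were found in few. With each cell thinned to 20000 counts, a count was present in 99.8% of the annotated cells for Hspa8, 98.5% for Hsp90ab1, 95.7% for Hsp90aa1, 93.2% for Hspe1, 86.3% for Dnaja1, 76.7% for Hspd1, 61.1% for Dnajb1 and 35.8% for Hsph1. For Hspa1a the share was 9.30% and for Hspa1b 6.48%. At the deposited depth (20013 to 1943315 counts per cell, median 203971) these last shares were 22.3% and 18.5%.

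For each library, the cells of a group (at least 5) were pooled into 1 count sum, and the sums were compared with edgeR's quasi-likelihood test. A call means a Benjamini-Hochberg adjusted p under 0.05 over all genes tested. Levels in these comparisons are CPM (counts per 1000000 counts) scaled with trimmed mean of M-values (TMM) factors and are called scaled CPM. Against iHSC, 7 of the 10 chaperones rose on day 5 and 0 fell, where 7.57% of the 13353 genes tested were called, 4.28% higher. On day 7, 6 rose and 1 fell, where 20.8% of all genes were called, 10.4% higher and 10.4% lower. On day 1, 1 of the 10 rose, where 3.14% of all genes were called, 2.34% higher. On day 3 edgeR and DESeq2 each called 0 of them, where edgeR called 1.12% of all genes and DESeq2 called 290 genes. At an unadjusted edgeR p under 0.05 there were 5 of them, beside 10.2% of all genes. Of these 5, Dnajb1 was lower (log2 change -1.05) and the others were higher. Without the 4 day 5 libraries labelled spleen alone, 1 of the 10, Hsp90aa1, was called on day 5, where 1.58% of the 13020 genes tested were called. The median fitted log2 change of the 10 genes was 1.03 on day 5 and 0.87 on day 7, beside medians over all genes of -0.12 and -0.10.

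**Figure D1:**
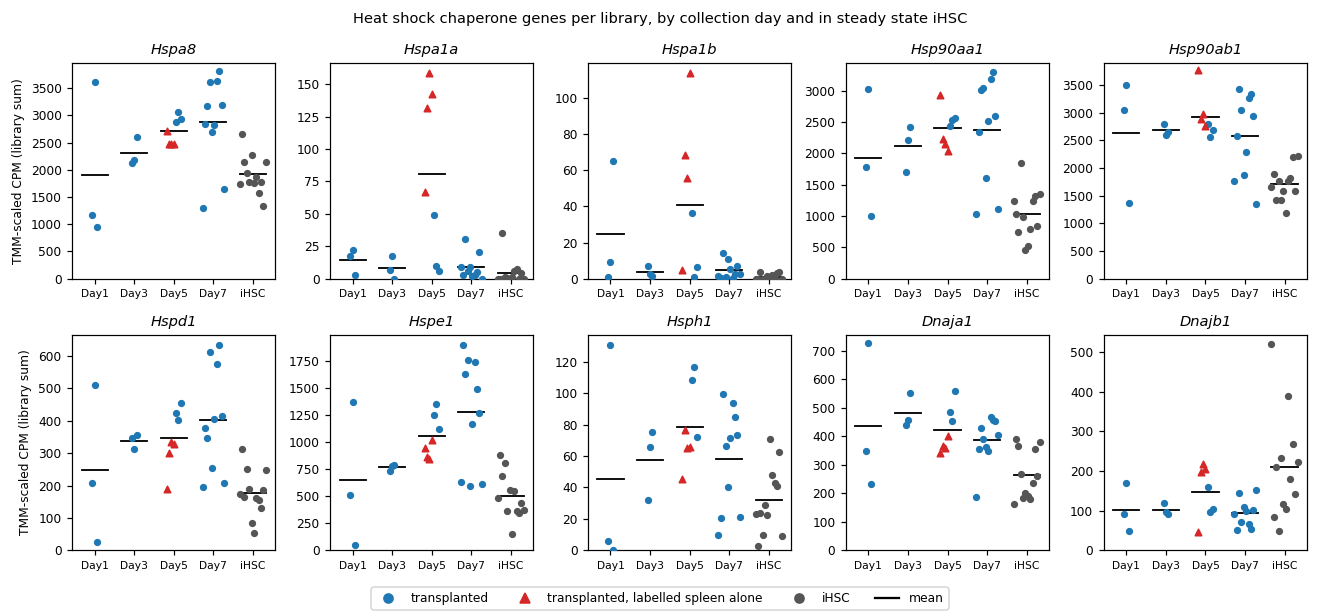
TMM-scaled CPM of each chaperone gene (y axis, linear) in every library sum, by collection day and in iHSC (x axis). Points are libraries, triangles are the day 5 libraries labelled spleen alone and lines are group means: the triangles lie high for Hspa1a (66.5 to 158.5), whereas the highest iHSC library has 35.2.

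A few libraries stood apart and are named with the results they touch. The day 1 library L87 (13 cells) had no counts of the 5 stem cell markers, a summed neutrophil marker level of 65118 CPM, and 38.5% of its cells predicted as lymphoid. The day 5 spleen library L66 held 8 cells, of which 62.5% were predicted as tMPP3, with a neutrophil marker sum of 12917 CPM. Day 1 and day 3 libraries were numbered L79 to L89, and most day 5 and day 7 libraries L47 to L72. Only the day 5 library L86 lay among the early-day numbers, and the day 7 library L78 next to them. Collection day and library number can therefore hardly be told apart. Among the day 5 libraries, those labelled spleen had the lowest numbers (L66 to L70), so organ label and library number cannot be told apart. On days 5 and 7, 10 of 10 mitosis genes were called higher than in iHSC. Their summed level was 1471 ± 500 unscaled CPM on day 5 (SD, n = 7), 1728 ± 581 on day 7 (n = 10) and 230 ± 118 in iHSC (n = 12), and its part in the chaperone differences from iHSC was not tested.

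Among the inducible Hsp70 genes, Hspa1a and Hspa1b were high on day 5, most of all in libraries labelled spleen. On day 5, Hspa1a had 66.5, 131.4, 158.5 and 142.7 scaled CPM in the spleen libraries L66, L68, L69 and L70. It had 49.2 and 6.0 in L71 and L86, which combined bone marrow and spleen, and 9.6 in the bone marrow library L72. The iHSC libraries ranged from 0.0 through a median of 0.6 to 35.2. All 4 spleen libraries and L71 thus lay above every iHSC library, and L72 and L86 lay within the iHSC range. The upper end of that range rests on single cells: 1 cell gave 96.2% of the 106 Hspa1a counts in the iHSC library L15 and 91.9% of the 136 in L73. The fitted log2 change on day 5 was 4.08 ± 0.97 (SE), with an edgeR adjusted p of 0.00596, at a mean of 80.6 ± 63.7 scaled CPM on day 5 (SD, n = 7) and 4.64 ± 9.98 in iHSC (n = 12).

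Hspa1b was high in 3 of the 4 spleen libraries and in L71, and low in L66, L72 and L86. On day 5 it had 5.0, 68.6, 55.8 and 113.8 scaled CPM in L66, L68, L69 and L70, 36.5 and 6.4 in L71 and L86, and 0.9 in L72. In iHSC it ranged from 0.0 through a median of 0.0 to 3.7. The log2 change was 5.20 ± 0.996 (edgeR adjusted p = 0.000726). Without the 4 libraries labelled spleen alone, neither gene was called on day 5: the log2 change of Hspa1a was 2.20 (edgeR adjusted p = 0.536) and that of Hspa1b 3.72 (adjusted p = 0.131).

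Most cells of L68, L69 and L70 carried the transcripts. Of cells thinned to 20000 counts, 37.5% had a count of Hspa1a or Hspa1b in L66, 73.1% in L68, 74% in L69, 79.6% in L70 and 56.5% in L71, against 3.70% in L72 and 8.33% in L86. At the deposited depth the first 5 of these libraries reached 87.5% to 100%, and L72 and L86 13% and 12.5%. The single highest cell gave 31.5% of the Hspa1a counts of L68, 16.6% in L69, 17.9% in L70 and 22.0% in L71, but 82.1% in L66. Within cells of 1 predicted type, tMPP2, the summed level of both copies was 335, 310 and 291 unscaled CPM in L68, L69 and L70, 64.1 in L71, 3.35 in L72 and 1.05 in L86. L66 had no tMPP2 cells. Within that type the spleen libraries were highest, followed by L71, with L72 and L86 lowest.

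**Figure D2:**
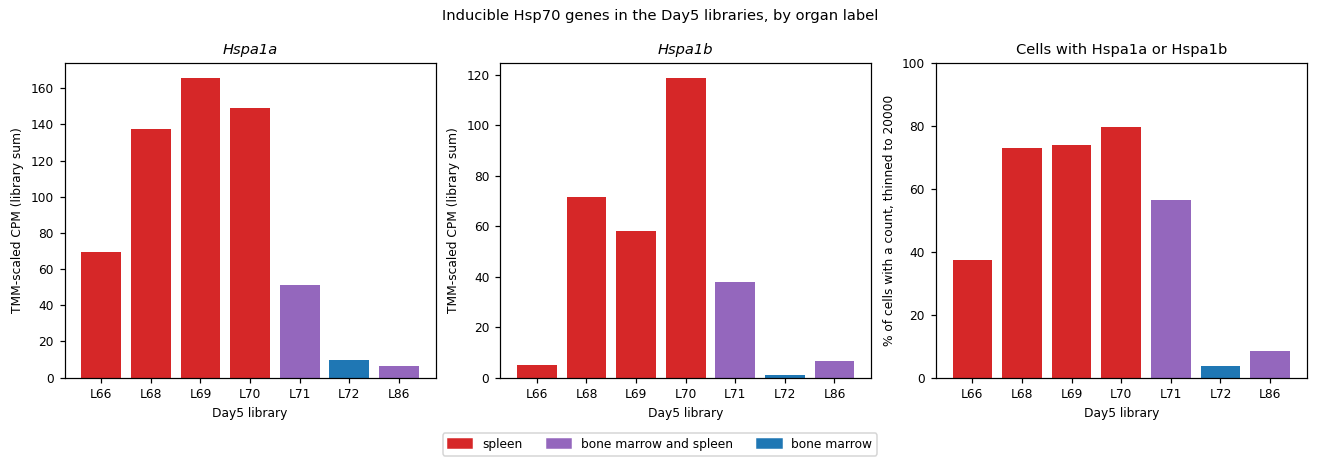
Scaled CPM of Hspa1a and of Hspa1b (left and middle, y axis), and the percent of cells with a count of either gene at 20000 counts per cell (right), for each of the 7 day 5 libraries (x axis), coloured by organ label. The spleen libraries reach 165.6 scaled CPM for Hspa1a and 118.8 for Hspa1b, and L72 and L86 stay at or under 10.0.

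Set directly against the 3 marrow-containing day 5 libraries in a fit of their own, Hspa1a had 69.2, 137.4, 165.6 and 149.0 scaled CPM in the spleen libraries and 51.3, 10.0 and 6.3 in L71, L72 and L86. These groups did not overlap, a separation that 3.61% of the 11915 genes showed in the same direction. The log2 difference was 2.54 ± 0.69 but was not called by edgeR (adjusted p = 0.940). In this comparison edgeR called 0% of all genes, with 568 genes at an unadjusted p under 0.05, whereas DESeq2 called 38 genes, Hspa1a among them (log2 difference 2.56, adjusted p = 0.0366). Hspa1b overlapped between the organ labels (log2 difference 2.08 ± 1.12).

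Hspa8, Hspd1, Hspe1 and Dnaja1 ran the other way. Hspa8 averaged 2650 ± 122 scaled CPM in the spleen libraries (SD, n = 4) and 3091 ± 103 in the marrow-containing libraries (n = 3), and Hspd1 averaged 301 ± 71.1 in the spleen libraries and 446 ± 28.9 in the marrow-containing ones. Hspe1 and Dnaja1 were likewise lower in every spleen library. These 4 genes were without overlap in that direction, which 5.19% of all genes showed, and edgeR called none of them (adjusted p = 0.940 each, the same value as for Hspa1a). Immediate early genes, which respond within minutes to stimuli and handling, were also measured: the summed level of 15 such genes was 2586, 4790, 5102 and 4258 unscaled CPM in L66, L68, L69 and L70 and 2619, 945 and 796 in L71, L72 and L86. The same list averaged 923 ± 594 CPM on day 7 (SD, n = 10) and 7826 ± 3196 in iHSC (n = 12), where Hspa1a was low. Macrophage markers summed to 1101 CPM in L66 and 28.01 to 36.4 in the other spleen libraries, against 39.8 to 133 in the marrow-containing ones, and stem cell markers to 88.1 to 297 against 179 to 231. NK cell markers summed to 264, 307, 404 and 306 CPM in the spleen libraries L66, L68, L69 and L70, against 208, 154 and 187 in L71, L72 and L86, without overlap, and Ncr1, one of the 3 NK markers, was at 0 in L68, L69, L70, L71 and L86. Sums of B cell, T cell and erythroid markers overlapped between the organ labels. Neutrophil markers summed to 2.97 to 12917 CPM in the spleen libraries, with Elane, Ngp and Ltf at 0 in L68 and L70, against 15.1 to 981. The part of these lists in the organ difference was not tested.

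On the other days Hspa1a stayed below its level in every day 5 spleen library, and some values of both genes rested on single cells. On day 7, Hspa1a ranged from 0.0 through a median of 5.3 to 30.8 scaled CPM and was not called (log2 change 0.88). In the day 7 library L63, 25 of 45 cells had an Hspa1a count, and 1 cell gave 52.3% of the counts. Day 7 set against day 5 gave a log2 difference of -3.20 ± 0.999 for Hspa1a (edgeR adjusted p = 0.139) and -3.16 ± 0.96 for Hspa1b (adjusted p = 0.122), neither called, where 0.404% of all genes were called and 0 of the 10 chaperones. On day 1, Hspa1b was the member called, with 0.7, 9.1 and 64.98 scaled CPM in L83, L84 and L87 (log2 change 4.45 ± 1.12, edgeR adjusted p = 0.0181). All 48 Hspa1b counts of L87 came from 1 cell, and without L87 the log2 change was 2.19 (adjusted p = 0.5676). Without L87, Hsp90aa1 (1.22, adjusted p = 0.0363) and Hsp90ab1 (0.94, adjusted p = 0.0192) were called on day 1 instead. On day 3, Hspa1a had 6.6, 17.3 and 0.0 scaled CPM in L79, L85 and L89, which overlapped iHSC. Day 3 against day 1 and day 5 against day 3 gave 0 calls among the 10 genes, with 0% of all genes called by edgeR in either, 693 and 347 genes at an unadjusted p under 0.05, and 26 and 18 genes called by DESeq2.

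The cytosolic Hsp90 pair, Hsp90aa1 (the more stress-responsive isoform) and Hsp90ab1 (the constitutive isoform), rose on days 5 and 7. On day 5, Hsp90aa1 ranged from 2030 through a median of 2431 to 2932 scaled CPM and in iHSC from 456.5 through 1007 to 1847, so the groups did not overlap, as was the case upward for 0.756% of all genes. Its log2 change was 1.23 ± 0.23 (edgeR adjusted p = 0.000458). Hsp90ab1 ranged from 2558 through 2794 to 3767 on day 5 and from 1185 through 1706 to 2208 in iHSC, again without overlap (0.77 ± 0.16, adjusted p = 0.00211). The Hsp90aa1 call held under all 29 alternatives tried, including that without the spleen libraries, where Hsp90ab1 was not called (0.65, adjusted p = 0.185).

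On day 7, Hsp90aa1 ranged from 1030 through 2558 to 3297 scaled CPM, with L47, L59 and L78 (1030, 1599 and 1103) inside the iHSC range. Its log2 change was 1.21 ± 0.21 (edgeR adjusted p = 6.03e-05). For Hsp90ab1 the day 7 range was 1352 to 3435, and the change was 0.60 ± 0.15 (adjusted p = 0.00358) but 0.38 (adjusted p = 0.0556) with relative log expression factors. On day 1, L83, L84 and L87 had 1776, 3018 and 1000 scaled CPM of Hsp90aa1, and on day 3, L79, L85 and L89 had 1706, 2214 and 2411. Neither day was called (log2 change 0.91 ± 0.30 with adjusted p = 0.0862 on day 1, and 1.04 ± 0.29 with adjusted p = 0.0720 on day 3). Both were called without the iHSC library L49 (1.02 with adjusted p = 0.0408 on day 1, and 1.15 with adjusted p = 0.0324 on day 3) and with tHSC and tMPP cells only (1.24 with adjusted p = 0.0187 on day 1, and 1.05 with adjusted p = 0.0264 on day 3). The steady state cells of L49 were labelled iMPP1, iMPP2 and iHSC3, whereas the deposited annotation lists them as Fraction II, HPC2 and Fraction III.

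The pair also stood above the multipotent progenitor gates of the steady state. Day 5 against iMPP called 4 of the 10 genes, all higher, where 1.56% of the 12352 genes tested were called, 0.769% higher: Hspa1a (log2 change 4.59 ± 0.95, edgeR adjusted p = 0.00832), Hspa1b (3.36 ± 0.87, adjusted p = 0.0343), Hsp90aa1 (0.65 ± 0.16, adjusted p = 0.0249) and Hsp90ab1 (0.57 ± 0.13, adjusted p = 0.0166). Hsp90aa1 was at 1959 to 2942 scaled CPM on day 5 and at 1168 to 1895 in iMPP, without overlap, as was true upward of 0.0891% of all genes. None of the 4 was called without the spleen libraries (log2 changes 2.72, 1.89, 0.71 and 0.46, adjusted p from 0.454 to 0.980), where 0.105% of the 13309 genes tested were called, and Hsp90aa1 alone was lost without L66 (0.60, adjusted p = 0.0614) or without L72 (0.63, adjusted p = 0.0567). The Hspa1b call was lost without any 1 of L68, L69, L70 and L71 (log2 changes 2.88 to 3.41). Day 7 against iMPP called 3 genes higher, where 5.84% of all genes were called, 3.5% higher: Hsp90aa1 (0.62 ± 0.14, edgeR adjusted p = 0.00642), Hsp90ab1 (0.40 ± 0.12, adjusted p = 0.0364) and Hspd1 (0.77 ± 0.19, adjusted p = 0.0129). The Hsp90ab1 call was lost without any 1 of L49, L55, L58, L61, L62 and L63. The summed level of the mitosis genes was 2316 ± 782 CPM in iMPP (SD, n = 17), above the means of days 5 and 7 given before. The part of these genes in the chaperone differences from iMPP was not tested.

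Hspa8, the constitutive cytosolic Hsp70, rose on day 7. It ranged from 1297 through a median of 3003 to 3820 scaled CPM on day 7, with L47 and L78 at the low end, and from 1333 through 1830 to 2655 in iHSC. The log2 change was 0.58 ± 0.17 (edgeR adjusted p = 0.0122), and with relative log expression factors it was 0.37 (adjusted p = 0.0992). On day 5 the libraries lay between 2474 and 3061, 4 of 7 above every iHSC library, without a call (0.50 ± 0.19, edgeR adjusted p = 0.0951), but Hspa8 was called by limma voom with the library as a block (0.66, adjusted p = 0.00853) and with tHSC and tMPP cells only (0.51, adjusted p = 0.0368). On day 1, L83, L84 and L87 had 1176, 3622 and 946 scaled CPM. L84 was the highest of the 3, and without it Hspa8 was called lower than in iHSC on day 1 (-0.89, adjusted p = 0.0477).

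Hsph1, an Hsp110 protein that exchanges the nucleotide of Hsp70, was not called on any day in the fit with all libraries. It averaged 78.6 ± 25.2 scaled CPM on day 5 (SD, n = 7), 58.04 ± 32.7 on day 7 (n = 10) and 32.1 ± 21.3 in iHSC (n = 12). The groups overlapped, and the day 5 log2 change was 1.30 ± 0.53 (edgeR adjusted p = 0.131). It was called on day 5 by limma voom with the library as a block (1.54, adjusted p = 0.0231) and by limma on mean log values per cell (0.40, adjusted p = 0.0133).

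**Figure D3:**
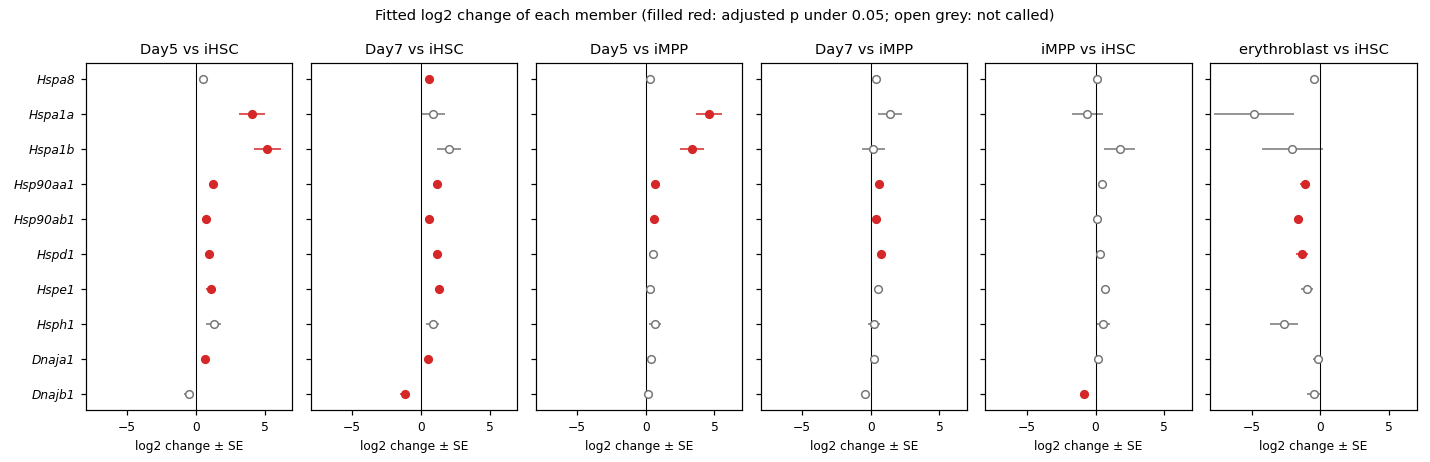
Fitted log2 change of each chaperone gene with its standard error (x axis, first-named group over the second) in 6 comparisons, filled red where the adjusted p was under 0.05. Hspa1a and Hspa1b have the widest bars, and both Hsp90 genes are red in 5 of the 6 panels, to the right of 0 in 4 panels and to the left in the erythroblast panel.

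Hspd1 (Hsp60) and Hspe1 (Hsp10), the subunits of the mitochondrial folding chamber, rose together. On day 7, Hspd1 ranged from 195 through a median of 392 to 635 scaled CPM and in iHSC from 54.7 through 169 to 314 (log2 change 1.19 ± 0.29, edgeR adjusted p = 0.00306). Hspe1 ranged from 594 through 1378 to 1897 on day 7 and from 150 through 462 to 876 in iHSC (1.36 ± 0.29, adjusted p = 0.000805). L47, L59 and L78 lay within the iHSC range for both genes, and both calls held under all 28 alternatives tried.

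On day 5 the changes were 0.98 ± 0.32 for Hspd1 (edgeR adjusted p = 0.0492) and 1.08 ± 0.32 for Hspe1 (adjusted p = 0.0275), at 348 ± 89.7 and 1057 ± 193 scaled CPM on day 5 (SD, n = 7) and 176 ± 71.6 and 499 ± 210 in iHSC (n = 12). The Hspd1 call on day 5 was lost in 20 of 29 alternatives (log2 change 0.85 to 1.28 over the 29, adjusted p up to 0.139), 15 of them leaving out 1 library. The Hspe1 call was lost without L71 (1.04, adjusted p = 0.0581) or L72 (1.01, adjusted p = 0.0629), with sums of at least 10 cells (1.03, adjusted p = 0.0591) and without the spleen libraries (1.32, adjusted p = 0.123). Both genes were lowest in L87 among the day 1 libraries, at 24.4 and 51.4 scaled CPM, and highest in L84, at 511 and 1372.

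The J-domain proteins Dnaja1 and Dnajb1, which deliver clients to Hsp70, differed in direction. Dnaja1 rose on day 5, to 423 ± 79.5 scaled CPM (SD, n = 7) against 265 ± 86.7 in iHSC (n = 12), with a log2 change of 0.68 ± 0.22 (edgeR adjusted p = 0.0445). On day 7 it averaged 385 ± 82.4 (n = 10; 0.54 ± 0.20, adjusted p = 0.0441). These calls were close to the threshold and were lost in 22 of 29 alternatives on day 5 and 21 of 28 on day 7, with no change of sign.

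Dnajb1 was lower on day 7 and is the only member that fell on any collection day in the fit with all libraries. It ranged from 51.2 through a median of 94.9 to 153 scaled CPM on day 7 and from 48.1 through 195 to 519 in iHSC, where L1 and L55 were highest (519 and 389). The log2 change was -1.16 ± 0.32 (edgeR adjusted p = 0.00780) and stayed called in all 28 alternatives tried. In the day 5 spleen libraries L66, L68, L69 and L70 it was at 45.7, 197, 216 and 206 scaled CPM, and at 159, 97.6 and 104 in L71, L72 and L86, and its day 5 mean of 147 ± 65.1 (SD, n = 7) was not called against iHSC (-0.51, edgeR adjusted p = 0.414). The immediate early genes fell with Dnajb1: 13 of 15 were called lower on day 7 than in iHSC and 0 higher, for example Fos (154 scaled CPM on day 7 against 2267 in iHSC, log2 change -3.88) and Egr1 (53.6 on day 7 against 625 in iHSC, -3.55). The part of those genes in the Dnajb1 difference was not tested.

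In the sorted steady state populations, Hsp90aa1, Hspd1, Hspe1, Hspa8 and Hsph1 were highest in myeloid-erythroid committed progenitors, and Hsp90ab1 in MPP2 (2434 unscaled CPM). The lowest populations were mature cells or erythroblasts. On the unscaled CPM scale, Hsp90aa1 averaged 2368 in common myeloid progenitors (CMP, 1 library) and 2341 in megakaryocyte-erythroid progenitors (MEP, 1 library), 1956 in MPP2 (3 libraries), and 180 in macrophages (1 library) and 200 in EryB erythroblasts (2 libraries). Hspd1 ran from 480 in CMP and 476 in MEP to 37.6 in MK and 39.3 in granulocytes. Hspe1 ran from 2238 in MEP to 129 in EryA erythroblasts, and Hspa8 from 2648 in CMP to 643 in granulocytes. Neighbours in these orders came from 1 to 5 libraries each and were not tested.

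Dnajb1 had another order. It was highest in common lymphoid progenitors (CLP, 302 unscaled CPM, 201 and 402 in its 2 libraries), ESLAMSK stem cells (294) and the stem cell gate Fraction III (221), and lowest in MK (54.5). In the CLP library with 402 CPM, L43 (7 cells), 1 cell gave 57.2% of the Dnajb1 counts, so the first place of CLP leans on that cell. Dnaja1 was highest in CD8 T cells (493, SD 314 over 2 libraries). Hspa1a was highest in granulocyte-monocyte progenitors (GMP, 54.2, 1 library), a level below that of the day 5 spleen libraries (mean 132, 4 libraries) and above that of the other 27 gates. The MK mean of 20.8 CPM came from 10 cells of L55 (41.6 CPM), with 0 counts in the 9 MK cells of L28.

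**Figure D4:**
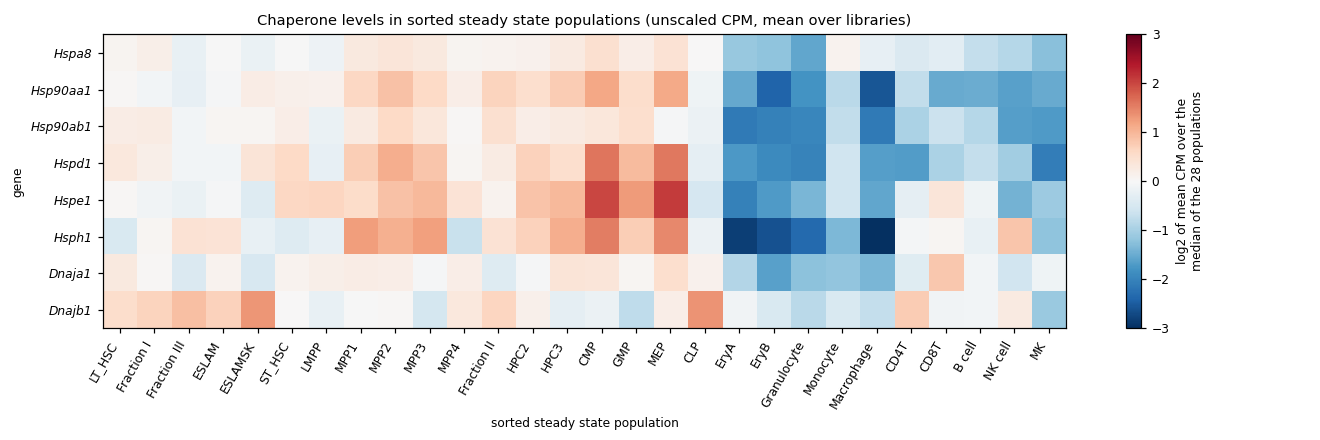
Mean unscaled CPM of 8 chaperone genes (rows) in the 28 sorted steady state populations (columns), as log2 of the ratio to each gene's median population (colour). Hspa1a and Hspa1b are left out because many populations have none, and CMP and MEP are red for Hsp90aa1, Hspd1, Hspe1 and Hsph1, where EryA, EryB, granulocytes and macrophages are blue.

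Tested over library sums of the gate classes, erythroblasts had 3 of the 10 genes lower than iHSC and 0 higher, where 15.5% of the 13168 genes tested were called, 6.55% lower. Hsp90ab1 had 638, 392 and 453 scaled CPM in the erythroblast libraries L16, L4 and L42, against 1040 to 2034 in iHSC, without overlap, as downward for 1.89% of all genes (log2 change -1.66 ± 0.24, edgeR adjusted p = 1.91e-06), and this call held under all 20 alternatives. L4 was labelled iMPP1, and the deposited annotation put 19 of its cells among EryB erythroblasts. Without L4 the Hsp90ab1 change was -1.43 (adjusted p = 0.000542). Hsp90aa1 (-1.11 ± 0.36, adjusted p = 0.0283) and Hspd1 (-1.36 ± 0.44, adjusted p = 0.0275) were lost in 9 and 6 of the 20, leaving out single libraries in most cases. Markers of another cell type moved with these values: neutrophil markers summed to 87809 ± 38200 unscaled CPM in the erythroblast sums (SD, n = 3), 45079 ± 13284 in the myeloid sums (n = 3) and 2715 ± 5393 in iHSC (n = 12). Erythroid markers summed to 2626 ± 988 CPM in erythroblasts and 225 ± 435 in iHSC. The part of these markers in the chaperone differences was not tested. The median change over all genes was -0.51 in erythroblasts and -0.46 in myeloid cells, to which these values are to be compared.

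Myeloid cells had 1 gene lower, Hsp90ab1, where 11.8% of all genes were called, 5.22% lower. It was at 496, 816 and 960 scaled CPM in L12, L43 and L5, below every iHSC library, as were 2% of all genes (log2 change -1.04 ± 0.23, edgeR adjusted p = 0.00151) and without L12 it was not called (-0.79, adjusted p = 0.0644). Lymphoid cells had 0 members called by edgeR, where 15.8% of all genes were called. At an unadjusted edgeR p under 0.05 there were 3 members, near the share of all genes (32.3%). DESeq2 called 2 members (Hsp90aa1 and Hsp90ab1, both lower), where it called 2783 genes in all. Committed progenitors had 1 gene higher, Hspe1, where 5.69% of all genes were called, 3.71% higher. It had 2608, 1712, 424 and 298 scaled CPM in L15 (MEP), L17 (CMP and GMP), L28 (CLP) and L43 (CLP), against 132 to 781 in iHSC (1.47 ± 0.34, adjusted p = 0.00593), and it was not called without L15 (0.91, adjusted p = 0.184). The myeloid-erythroid progenitor libraries lay above every iHSC library, and the lymphoid progenitor libraries within their range.

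Multipotent progenitors had 1 member called, Dnajb1, at 110 ± 46.1 scaled CPM in iMPP (SD, n = 17) and 193 ± 126 in iHSC (n = 12), where 8.79% of all genes were called, 4.85% lower. The log2 change was -0.82 ± 0.26 (edgeR adjusted p = 0.0426), and 20 of 29 alternatives, 19 of them leaving out 1 library, lost the call (log2 change -0.92 to -0.55 over the 29). Hspe1 was not called (747 ± 194 in iMPP and 454 ± 184 in iHSC, 0.72 ± 0.24, adjusted p = 0.0534) but was called in 11 of 29 alternatives. The libraries L14, L49, L50, L51 and L74 hold cells of both iMPP and iHSC, which the edgeR fit does not model. With the library as a block in limma voom, Hsp90aa1 (0.51, adjusted p = 0.0197) and Hspe1 (0.80, adjusted p = 0.0207) were called in iMPP beside Dnajb1, and of the 3 genes lower in erythroblasts Hsp90ab1 alone was called.

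Among the authors' predicted types, which were made from the same counts and are therefore described without a test, transplanted tMPP3 cells had the highest levels of Hsp90aa1, Hspd1 and Hspa8. On the unscaled scale they averaged 3056 CPM of Hsp90aa1, 565 of Hspd1 and 3425 of Hspa8 over 5 libraries. Transplanted tME cells had the lowest (114, 47.8 and 543 CPM, 4 libraries), and tGM cells had 365, 86.4 and 1032 CPM (6 libraries). In transplanted tMPP1, tMPP2, tMPP3 and tMPP5 cells, Hsp90aa1 averaged 2172, 2489, 3056 and 2278 CPM, each above the same type in the steady state (1457, 1803, 1536 and 1236 CPM). In tMPP4 cells the 2 origins were close, at 1374 CPM after transplantation and 1337 in the steady state. Among the transplanted progenitor types Dnajb1 ran the other way: it was lowest in tMPP3 (53.8 CPM) and higher in tMPP4 (236 CPM) and in the 6 tHSC cells of 1 library (417 CPM). Like Hsp90aa1, Hspd1 and Hspa8, however, Dnajb1 was low in tME (47.2 CPM) and tGM cells (56.6 CPM).

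**Figure D5:**
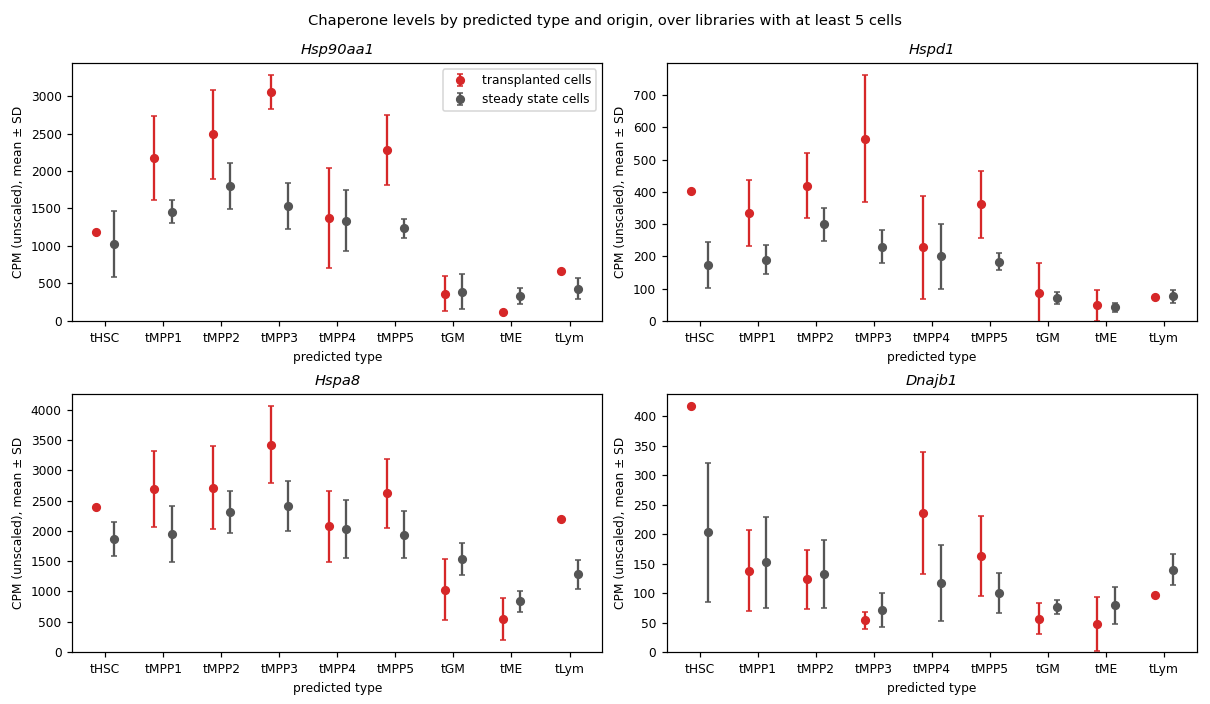
Unscaled CPM of 4 chaperone genes (y axis, linear) in each predicted type (x axis), for transplanted and steady state cells. Points are means and bars SDs over libraries with at least 5 cells (no bar where 1 library), and for Hsp90aa1 the transplanted points of tMPP1, tMPP2, tMPP3 and tMPP5 lie above the steady state ones.

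The shares of predicted types differed between libraries of 1 day. On day 7, tMPP3 made up 59.5%, 56.2% and 78.3% of the cells in L58, L61 and L62, where Hspd1 was at 613, 574 and 635 scaled CPM. L47, L59 and L78 had 2.13%, 1.82% and no such cells, and Hspd1 was at 195, 255 and 208. L60 had a share near theirs (3.92%) with Hspd1 at 405, and L63 had 13.3% with Hspd1 at 414. In L49 and L55, of 5 cells each, 1 and 0 cells were tMPP3, and Hspd1 was at 378 and 348. Cells predicted as tGM and tME made up 14.9% and 10.6% of L47, 43.6% and 10.9% of L59, and 8.33% and 11.1% of L78. Their shares were 19.6% and 17.6% in L60, 13.5% and 8.11% in L58, and 11.7% and 0% in L62. L49, L55, L61 and L63 had none. The part of the predicted types, made from the same counts, in these Hspd1 levels was not tested. Within tMPP2 cells alone, Hsp90aa1 was at 3700 unscaled CPM on day 1 (1 library) and averaged 2553 on day 3 (3 libraries), 2609 on day 5 (6 libraries) and 2250 on day 7 (5 libraries), each above the 1803 CPM of steady state tMPP2 cells (8 libraries).

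Chaperone systems beyond these 10 genes also held called genes on days 5 and 7 against iHSC. Their counts are to be read beside the shares of all genes called, which were 4.28% higher and 3.29% lower on day 5 and 10.4% in each direction on day 7. Of the 8 subunits of CCT, the cytosolic chaperonin that folds actin and tubulin, 1 rose on day 5 (Tcp1, log2 change 1.41) and 5 on day 7, among them Tcp1 (1.51), Cct8 (1.06) and Cct7 (0.89). Of 24 HSF1 targets and cytosolic co-chaperones, 3 rose on day 5 and 0 fell: Cacybp (0.95), the Hsp90 co-chaperone Ptges3 (0.92) and the Hsp110 family gene Hspa4 (1.06). On day 7, 5 rose and 1 fell, with Cacybp at 1.11, Hspa4 at 1.10 and the J-protein gene Dnajb4 at -1.86. The medians of this list were 0.31 and 0.15 on days 5 and 7, beside -0.12 and -0.10 over all genes. The numbers of calls on the 2 days were not tested against each other.

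Of 10 mitochondrial folding genes, edgeR called 0 on day 5, with 2 at an unadjusted p under 0.05, near the share of all genes (21.7%). On day 7, 2 rose, the protease Lonp1 (1.32) and the mitochondrial Hsp70 Hspa9 (0.76). Of 14 endoplasmic reticulum folding genes, 1 rose and 1 fell on day 5 (Hyou1 2.04 and Dnajb9 -2.01), and 4 rose and 1 fell on day 7 (Calr 1.004, Pdia3 0.68, Dnajb9 -2.61). Against iMPP, Hspa4 and Hspa9 were higher on day 5 (0.88 and 0.67), and no gene of these 4 lists was lower. On day 7 against iMPP, 2 of the 23 HSF1 targets and co-chaperones tested were higher (Hspa4 0.93 and Dnaja2 0.57) and 2 lower (Hspbp1 -0.78 and Dnajb4 -1.12). In that comparison 2 CCT subunits (Cct6a 0.65 and Cct8 0.43) and Hspa9 (0.73) were higher and Dnajb9 was lower (-1.10), where 3.5% of all genes were called higher and 2.34% lower. In erythroblasts 3 of 8 CCT subunits (Cct6a -1.44, Cct2 -1.35, Cct3 -1.29), 3 of 10 mitochondrial genes (Hspa9 -2.09, Clpp -2.50, Pam16 -1.58), 2 of 24 HSF1 targets and cytosolic co-chaperones and 1 of 14 endoplasmic reticulum genes fell, and none rose. The counts for the last pair of lists are near the 6.55% of all genes called lower.

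Over 84 library sums of sorted populations and collection days, the 2 Hsp90 genes followed each other closely (Spearman's rho 0.92), as did Hspd1 and Hspe1 (0.86). The latter value was not particular to that pair: Hspd1 had 0.89 with Hsp90aa1 and 0.86 with Hspa8. Hspa8 in turn had 0.87 with Hsp90aa1. Hspa1a and Hspa1b followed each other less closely (0.52), and Dnajb1 had correlations of -0.11 to 0.14 with the other members. The rankings that follow, over 8492 genes compared, leave out the members themselves and predicted transcripts (Gm and Rik names). Of the remaining genes, those most like Hspa8 were Mrto4 (0.84), Cct3 (0.84), Hspa9 (0.82), Cct8 (0.82) and Ncl (0.82). Those most like Hspd1 were Ncl (0.89), Set (0.86), Nop58 (0.86), Dkc1 (0.86) and Pa2g4 (0.86). For the sum of Hspa1a and Hspa1b no gene exceeded 0.55 (Ube2m). The sums share libraries and differ in depth, and these values are descriptions.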

How the data were processed

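The authors deposited raw counts per gene and cell with a cell annotation (sorted phenotype, predicted type, library). TopHat, HTSeq and the mm10 build are named in the submitters' processing notes, and the labels' protocols name modified Smart-seq2. No molecular identifiers are stated, so floors cover counting error only. Annotated cells were summed per library and group (at least 5 cells). Sums were tested with edgeR 4.0.16 (R 4.3.3; filterByExpr, TMM factors, quasi-likelihood test, two-sided, Benjamini-Hochberg adjustment, call at 0.05), on 4 sets of sums, of 35, 43, 7 and 34. Total counts per sum ran from 517741 to 14674872 in iHSC and from 1078317 to 19103472 on day 5. The script was tested on simulated data. Shares of cells were computed as deposited and thinned to 20000 counts. Alternatives used DESeq2 1.42.0, limma 3.58.1, other factors, filters and cell minimums, and left out single libraries. The 10 genes and all lists were chosen with earlier results of these data known. Each other list names up to 3 called genes with the smallest p. The 578 cells without annotation and MK cells entered no test.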

Additional observations from a re-analysis of the deposited data

Results flagged for a closer look

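In 50 checks for a library far from the others (10 genes in each of 5 groups of 4 to 10 libraries), chance flags about 1 in 20. On the scaled CPM scale, L66 was far above the other day 5 libraries for Hsp90ab1 (3766.84) and, among the spleen libraries, for Hspa8 (2832.57), and far below them for Dnajb1 (47.5). L66 held 8 cells. L47 was far below the other day 7 libraries for Dnaja1 (187.09). Among committed progenitors, L17 was far above the others for Hspa1a (24.21) and Hspa1b (16.41). Among lymphoid libraries, L2 was far above the others for Dnajb1 (287.77). L53 had 0.86 for Hspa1b and the other 3 had no count, so any count would have stood out there.

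The 3 libraries that pooled collection days entered no test and were used only in the levels by predicted type. Several chaperone levels in them exceeded every iHSC library on the unscaled CPM scale. L80 (days 1 and 3) had 2176.49 CPM of Hsp90aa1, 2866.79 of Hsp90ab1, 370.94 of Hspd1 and 460.2 of Dnaja1. L88 (days 1 and 3) had 2674.36 CPM of Hsp90ab1, 305.28 of Hspd1 and 523.7 of Dnaja1. L77 (days 5 and 7) had 27.82 CPM of Hspa1b, 394.59 of Hspd1, 992.55 of Hspe1 and 411.06 of Dnaja1. The highest iHSC libraries had 1884 CPM of Hsp90aa1, 2362 of Hsp90ab1, 3.97 of Hspa1b, 265 of Hspd1, 827 of Hspe1 and 406 of Dnaja1.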

How the results depend on the processing

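Of 3490 alternative values for single members, 3279 kept their side of the threshold, 148 lost a call, 63 gained one and 0 changed sign as calls. Values without a call could change sign and still count among the 3279, such as Hspd1 on day 1 against iHSC (log2 change -0.64 to 1.06). The numbers below count members called, with the number of all genes called in brackets, and the cause of each change was not tested. The main fits called 7 (1011) on day 5 and 7 (2784) on day 7 against iHSC. Without the libraries that hold both origins 5 (1185) were called on day 5 and 6 (2409) on day 7 against iHSC. With relative log expression factors 5 (1053) were called on day 5 and 4 (2976) on day 7 against iHSC. Those factors gave 2 (703) on day 7 against iMPP, 2 (1570) in myeloid and 1 (2034) in lymphoid cells. DESeq2 called 5 (1614) on day 5 and 4 (3441) on day 7 against iHSC. It called 4 (3206) in erythroblasts, 2 (2640) in myeloid cells, 2 (2783) in lymphoid cells and 1 (38) between the day 5 organ labels. With limma voom and the library as a block 0 (103) were called on day 1, 1 (314) on day 3 and 9 (2200) on day 5 against iHSC. The block gave 1 (515) between days 7 and 5, 3 (2148) in iMPP, 4 (2018) in committed progenitors and 1 (1709) in erythroblasts. This block was not run for days 5 and 7 against iMPP and the day 5 organ labels. Without a filter on low counts 6 (1105) were called on day 5 and 6 (3740) on day 7 against iHSC. That setting gave 4 (2773) on day 7 against iMPP and 2 (1942) in iMPP. With at least 10 cells per sum 4 (1036) were called on day 5 and 6 (3042) on day 7 against iHSC. Against iMPP 2 (163) were called on day 5 and 2 (947) on day 7. The same sums gave 0 (813) in iMPP, 2 (740) in committed progenitors and 4 (2646) in erythroblasts. With tHSC and tMPP cells only 2 (222) were called on day 1, 2 (207) on day 3 and 8 (1347) on day 5 against iHSC. Those cells gave 5 (416) on day 7 against iMPP. On mean log values per cell 0 (528) were called on day 1, 8 (2076) on day 5 and 5 (3179) on day 7 against iHSC. The mean log values gave 1 (19) between days 7 and 5, 2 (409) on day 5 against iMPP and 0 (820) on day 7 against iMPP. Settings without the spleen libraries were chosen after seeing the data: 1 (206) was called on day 5 against iHSC, or 4 (278) with tHSC and tMPP cells only. Against iMPP 0 (14) were called on day 5 without the spleen libraries, and 0 (13) with tHSC and tMPP cells only. Leaving out 1 library at a time gave 1 to 2 (229 to 638) on day 1 and 0 to 1 (25 to 161) on day 3 against iHSC. It gave 4 to 7 (700 to 1065) on day 5 and 6 to 7 (2384 to 3062) on day 7 against iHSC. The ranges were 3 to 4 (98 to 221) on day 5 and 2 to 5 (497 to 831) on day 7 against iMPP. They were 0 to 3 (921 to 1278) in iMPP and 0 to 3 (326 to 989) in committed progenitors. Erythroblasts had 1 to 3 (1127 to 2392) and myeloid cells 0 to 2 (785 to 1811). Thinning moved 41 of 66 shares of cells with a count. No paired analysis was possible because the library titles carry no replicate numbers shared between groups, apart from the fit given above that blocks on libraries holding cells of several groups. The few early-day and marrow-only libraries limit what can be called, and Hspa1a and Hspa1b rest on few counts outside day 5.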
